A study of Mus musculus with 17 samples.

Results

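The cytosolic ribosomal protein genes were followed in the remote, non-infarcted left ventricular wall of the mouse heart after myocardial infarction (MI) and after MI with valsartan treatment. Members were chosen by name only. A gene was taken where its symbol in the array annotation starts with Rpl or Rps and a digit, or is Rplp0, Rplp1, Rplp2 or Rpsa, and S6 kinase genes (Rps6k) and pseudogenes were left out. This gave 65 of 19057 annotated genes, carried by 96 of 45281 probes. By role, 30 belong to the large (60S) subunit, 23 to the small (40S) subunit and 3 to the ribosomal stalk, 7 are paralogues of a subunit gene, and 2 (Rps19bp1 and Rps23rg1) are only named after a ribosomal protein.

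Ribosomal proteins hold the ribosomal RNA of both subunits in shape and are needed in matched amounts, since a ribosome carries each of them once, apart from the paired stalk proteins. Their mRNAs are abundant and start with a short pyrimidine tract, the 5′ terminal oligopyrimidine (TOP) motif, through which mTORC1 sets how well they are translated. In the adult heart, growth of cardiomyocytes goes with more ribosomes, and a striated muscle paralogue, Rpl3l, largely takes the place of Rpl3 in cardiomyocytes.

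All 17 female C57/BL6 mice were 8 to 10 weeks old according to the labels, and the methods name the strain C57BL/6N. The 6 MI mice had a coronary ligation and drank water only, and the 5 MI+Val mice had the same ligation and were given valsartan, which blocks the AT1 receptor for angiotensin II, at 1 mg/kg/day in the drinking water for 4 weeks. Infarcted mice entered the study only with an ejection fraction within a set range on the day after surgery and were then randomised between these arms. The 6 sham mice were operated on without ligation. RNA came from the posterior and inferior wall away from the infarct at week 4, so the values describe that wall and not the scar, and each array is 1 mouse.

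The annotated start sites show a feature that many of these genes share beyond their names. The start windows below were taken from RefSeq on the GRCm38.p6 build, with 10 bases before the start and 20 from it, written 5′ to 3′ on the strand of the gene. Capitals mark the first run opening within 10 bases of the start that begins with C and goes on with at least 4 further C or T letters, the letters of a TOP motif. The set holds Rps6, Rps15a, Rplp0 and Rpl3l, to which the results below return, with Rplp2 and Rpl38 as a stalk and a 60S gene with a long run at or near the start.
Rps6, chr4:86857348-86857377, minus strand: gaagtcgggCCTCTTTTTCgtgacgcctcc
Rps15a, chr7:118116128-118116157, minus strand: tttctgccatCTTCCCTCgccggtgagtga
Rplp2, chr7:141447641-141447670, plus strand: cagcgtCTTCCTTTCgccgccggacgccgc
Rpl38, chr11:114668570-114668599, plus strand: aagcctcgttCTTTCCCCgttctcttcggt
Rplp0, chr5:115559457-115559486, plus strand: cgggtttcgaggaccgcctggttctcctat
Rpl3l, chr17:24727816-24727845, plus strand: ttctagctctgtcatttgaCCTCTggtgcc

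Rps15a and Rpl38 open with the run exactly at the annotated start, and in Rps6 it opens 1 base before the start. Rplp0 has no such run within 10 bases of its start, and in Rpl3l the run opens at base 10 of the transcript. RefSeq windows were matched for 54 of the 65 genes, 9 of them with several starts. Leaving out the 2 genes that are not ribosomal proteins, 33 of 52 (63.5%) had the run within 10 bases of a start, against 34.4% of 27025 genes in the same table. Read from the start base itself, even where the run had opened before it, the same letters were found in 9 (17.3%), against 3.0%.

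Further letters were searched on both strands in the 300 bases from 250 before to 50 after the start. CCGGAAG, the core of an ETS factor site, was found in 23 of the 52 (44.2%), against 9.9% of all genes. AAGATGGC, the core of a YY1 site, was found in 4 (7.7%), against 3.2%. The TATA box letters TATAAA were found in 6 (11.5%), against 15.7%. These are matches of letters in a window and were not tested as binding sites.

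Most members could be measured. Of the 96 probes, 76 passed a signal filter on the 33rd percentile over the arrays, and they represented 56 of the 65 genes, namely 27 of the 60S, 20 of the 40S, 3 of the stalk, 5 paralogues and Rps19bp1. The 9 genes that did not pass were Rpl6, Rpl14, Rpl17, Rps20, Rps23, Rpsa and Rpl39l, for which no probe was detected on any array, and Rpl22l1 and Rps23rg1. A probe at background says nothing of the mRNA of subunit genes as basic as Rpl6 or Rpsa. Rpl22l1 was detected on 7 arrays and Rps23rg1 on up to 6. Whether these 2 genes and the paralogue Rpl39l were low in this tissue was not tested. Rpl5, Rpl7, Rpl10, Rpl10l, Rpl11, Rps27 and Rps27a have no probe under this annotation and were not analysed here.

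The arrays were of like quality. Between 13929 and 15206 probes per array had a detection p under 0.01, and the median bead signal ran from 90.0 to 120.3. The 17 arrays sat on 3 chips, with 4 MI, 1 sham and 1 MI+Val mouse on chip 1, 1 MI, 3 sham and 2 MI+Val on chip 2, and 1 MI, 2 sham and 2 MI+Val on chip 3. The tissue carried the markers of working myocardium, since 9 of 10 cardiomyocyte markers were measured. Their summed linear signal ran from 60883 to 68367 in sham, 59580 to 67221 in MI and 62170 to 67823 in MI+Val mice. Their median log2 difference was -0.24 in MI vs. sham and 0.18 in MI+Val vs. MI, with none called. The test called 5 of 8 measured macrophage markers in MI vs. sham, all higher, with a summed signal of 3327 to 4896 in sham, 5320 to 9503 in MI and 4590 to 6231 in MI+Val mice. None of 7 fibroblast markers passed the test (1450 to 1927 in sham, 1793 to 2156 in MI and 1674 to 2172 in MI+Val), and all 8 lymphocyte markers were below the filter. The atrial gene Myl4 varied widely between mice, from 140 to 9067 in sham, 138 to 4895 in MI and 108 to 1006 in MI+Val mice, as did the summed signal of 2 erythroid markers, from 11600 to 25516, 4243 to 24213 and 6184 to 23614. The part of these shifts in the values below was not tested, and in whole tissue fewer cells of a type and less RNA per cell cannot be told apart.

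In MI vs. sham mice the ribosomal protein mRNAs stayed close to the sham level, with a single gene, Rps6, past the test. All values are on a log2 scale after background correction and quantile normalization, and a gene was called at an adjusted p under 0.05 in a linear model over the 3 groups (limma, Benjamini-Hochberg over 8236 genes). By this test 1 of the 56 genes (1.79%) was called, against 5.63% of all genes tested, and it was lower in MI, against 2.32%. At an unadjusted p under 0.05, 5 of the 56 (8.93%) passed in limma, against 19.7% of all genes.

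The differences were small as well as few. The median log2 difference was -0.01 over the 56 genes and -0.01 over all genes. Of the 56, 47 (83.9%) lay within 0.2 of 0, against 65.8% of all genes. At a mean log2 signal of at least 11 this share was 88.6% for 35 members and 75.9% for 543 other genes. Below that signal it was 76.2% for 21 members and 64.9% for 7637 others. With scaling to the 75th percentile the median differences were -0.11 over the 56 genes and -0.03 over all genes. For 50 of the 56 (89.3%) the whole 95% interval of the difference lay within 0.5 log2 of 0, which held for 66.2% of all genes. The 6 others include Rps6 and the dim probes with wide intervals, such as that of Rps13 (-0.59 to 0.39). A brighter Rps13 probe, with a mean of 12.62, was not the one chosen and gave -0.15.

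**Figure D1:**
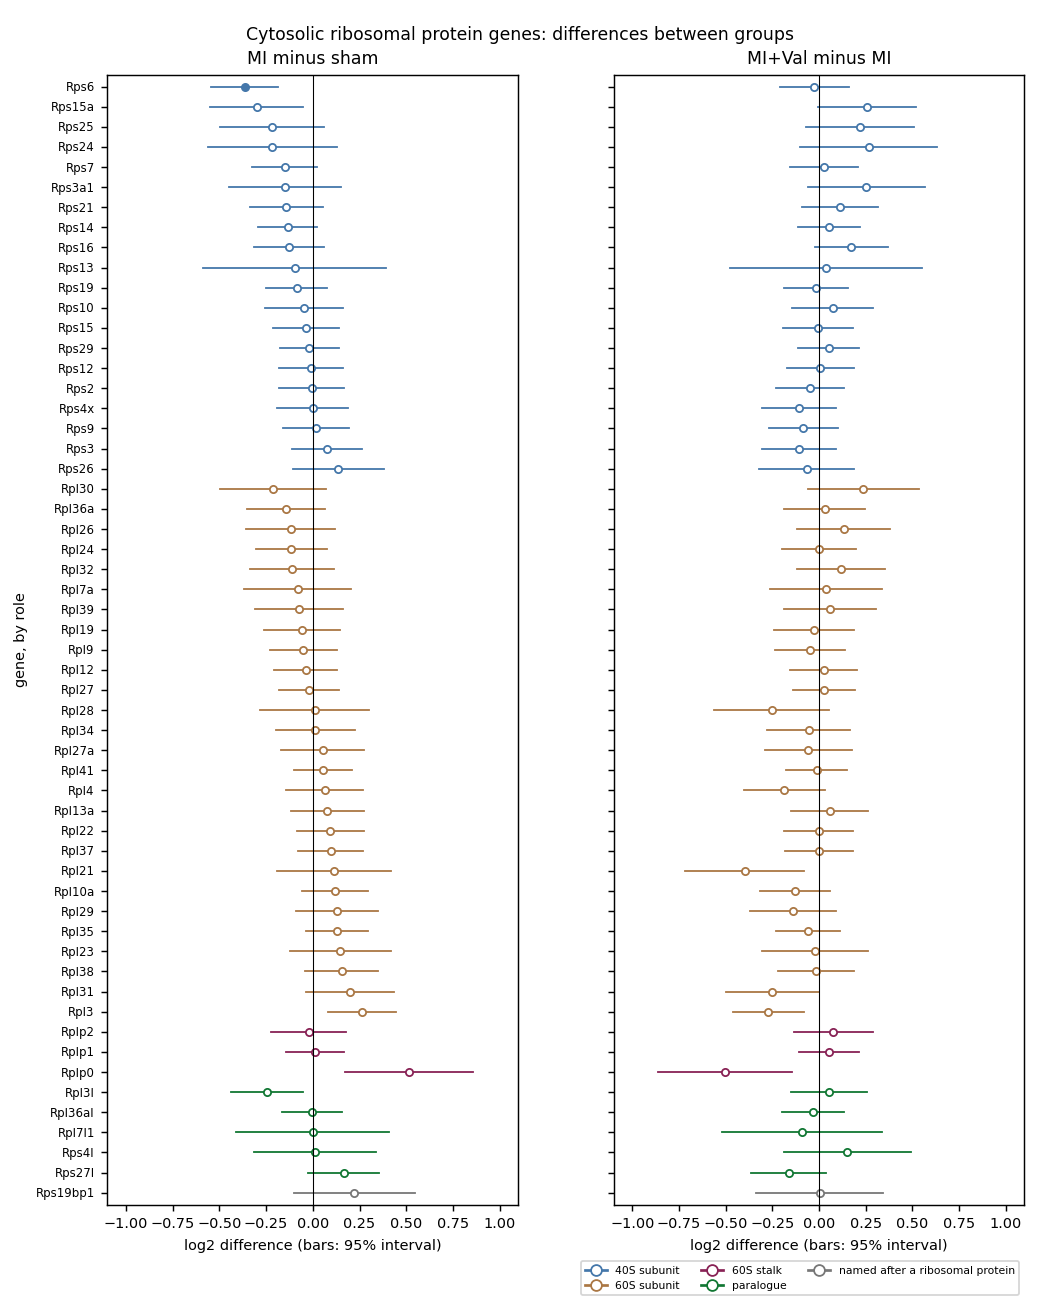
log2 difference of each of the 56 measured genes (points) with its 95% interval (bars), MI minus sham on the left and MI+Val minus MI on the right, grouped and coloured by role. The filled point, Rps6 in MI vs. sham, is the only one past the adjusted threshold. On the left 47 of the 56 points (83.9%) lie within 0.2 of 0, against 65.8% of all genes tested.

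The 40S genes were led by Rps6, the small subunit protein that the S6 kinases phosphorylate downstream of mTORC1. Its log2 signal in sham mice ran from 11.21 to 11.50 with a median of 11.43, and in MI mice from 10.94 to 11.13 with a median of 11.05. In the 5 MI+Val mice it was 10.80, 10.94, 11.10, 11.11 and 11.12. Every infarcted mouse, treated or not, lay below the lowest sham mouse.

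Rps6 fell by 0.37 on the log2 scale in MI vs. sham (SE 0.08, 95% interval -0.54 to -0.19, limma adjusted p = 0.0158), or 1.29-fold. MI+Val and MI mice differed by -0.03 (95% interval -0.21 to 0.16, adjusted p = 0.955). MI+Val vs. sham gave -0.39 with an adjusted p of 0.162, and it passed in the values that the authors normalized (-0.37, adjusted p = 0.0386). Groups without overlap were found for 1 of the 56 genes in MI vs. sham, against 3.55% of all genes, and for 1 in MI+Val vs. sham, against 0.777%, and Rps6 was the gene in both.

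The Rps6 difference was seen within each chip, at -0.40 on chip 1, -0.31 on chip 2 and -0.23 on chip 3, although each of these values rests on 1 array of one of the groups. With chip as a fixed block the difference was -0.30 and the call was lost (limma adjusted p = 0.0985). Rps6 is measured by 1 probe. Here and for the other members the probes were not checked for matches to ribosomal protein pseudogenes. The study also lists Rps6 among the genes it selected on these same arrays, so that its listing there is not independent evidence.

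The other 40S genes lay mostly just below 0. Of the 20 measured, 17 had a negative difference in MI vs. sham, with a median of -0.09, and all but Rps6 missed the test. Over all genes tested, 4290 of 8236 were below 0, with a median of -0.01. The 40S median was -0.05 without sham replicate 4, -0.13 without sham replicate 2 and -0.17 with scaling to the 75th percentile. Over all genes that scaling gave a median of -0.03. Under other ways of processing, between 15 and 18 of the 20 were negative, and scaling to the 75th percentile gave 18. Genes measured on the same arrays are not independent, and this count was not tested.

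Rps15a, another 40S protein, was named after its values were seen. Its sham values ran from 5.69 to 6.47 (median 6.03) and its MI values from 5.57 to 5.94 (median 5.79). The 5 MI+Val values were 5.82, 5.95, 6.10, 6.13 and 6.17. The MI and sham ranges overlapped, the difference of -0.30 had a limma adjusted p of 0.161, and the probe is dim. Rps19, the gene most often mutated in Diamond-Blackfan anaemia, differed by -0.09 (95% interval -0.25 to 0.08), and Rps29, one of the brightest probes of the whole set, by -0.02 (-0.18 to 0.14).

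The 60S genes had no called member. Of the 27 measured, 16 had a positive and 11 a negative difference in MI vs. sham (median 0.05). This balance turned with the processing. Scaling to the 75th percentile and taking the brightest probe of each gene each gave 15 negative and 12 positive, with medians of -0.03 and -0.02. Over all genes the medians under these settings were -0.03 and -0.01. Without sham replicate 2 the 60S median was 0.03. Rpl41, the smallest ribosomal protein, had a bright probe and differed by 0.06 (95% interval -0.10 to 0.21), which turned to -0.04 with that scaling. Rpl13a, known from human cells also for silencing inflammatory mRNAs outside the ribosome, differed by 0.08 (-0.12 to 0.27). Rpl22 differed by 0.09 (-0.08 to 0.27) and Rpl39, at the exit tunnel, by -0.07 (-0.31 to 0.16).

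Rpl3, which sits near the peptidyl transferase centre, was the 60S gene with the smallest p. Sham mice ran from 12.61 to 12.87 with a median of 12.79, and MI mice from 12.82 to 13.16 with a median of 13.12. The MI+Val mice were at 12.62, 12.76, 12.78, 12.79 and 12.85. Of the 6 MI mice 4 lay above every sham mouse and every MI+Val mouse, and the lowest MI mice overlapped with both.

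Rpl3 was 0.26 higher in MI than in sham (95% interval 0.08 to 0.45) and did not pass the test (limma adjusted p = 0.0809). It was 0.27 lower in MI+Val than in MI (-0.46 to -0.08, adjusted p = 0.337) and differed from sham by -0.01 in MI+Val mice. Within chips the MI minus sham difference was 0.24, 0.43 and 0.02, each value resting on 1 array of one of the groups. The call changed with the processing. Rpl3 passed without background correction (adjusted p = 0.0296), in the authors' values (0.03955), with a variance trend over intensity (0.0270) and without MI replicate 6 (0.0457), and scaling to the 75th percentile lowered the difference to 0.17.

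The stalk of the 60S subunit, formed by Rplp0 with pairs of Rplp1 and Rplp2, recruits the elongation factors. Rplp1 had the brightest probe of the whole group, with log2 signals from 14.45 to 14.70 in sham, from 14.59 to 14.70 in MI, and at 14.60, 14.64, 14.70, 14.75 and 14.75 in MI+Val. Its MI minus sham difference was 0.01 (95% interval -0.14 to 0.17), or -0.08 with scaling to the 75th percentile, and that of Rplp2 was -0.02 (-0.22 to 0.18). At the top of the scale quantile normalization gives arrays in which a probe has the same rank the same value. Several mice share a value of Rplp1, so its narrow range says little of how stable the mRNA was. The same limit holds for Rps29 and Rpl41, which also lie at the top of the scale and have values shared between mice.

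Rplp0, often used as a reference gene, was measured by a dim probe with a wide spread. Sham mice ran from 6.46 to 7.47 with a median of 6.88, and MI mice from 7.16 to 7.93 with a median of 7.41. The MI+Val mice were at 6.76, 6.88, 6.90, 7.08 and 7.13, all of them below the lowest MI mouse. In MI vs. sham it differed by 0.51 (95% interval 0.17 to 0.86, limma adjusted p = 0.0716), and in MI+Val vs. MI by -0.50 (-0.86 to -0.15, adjusted p = 0.353).

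Rplp0 did pass the MI vs. sham test without sham replicate 1 (0.59, adjusted p = 0.0392), without sham replicate 4 (0.62, adjusted p = 0.0287) and with the replicate number as a block (adjusted p = 0.0373). With chip as a fixed block the difference was 0.33 (adjusted p = 0.346), and in the values normalized by the authors it was 0.23. A second Rplp0 probe was at background on all arrays, so the difference rests on 1 probe.

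**Figure D2:**
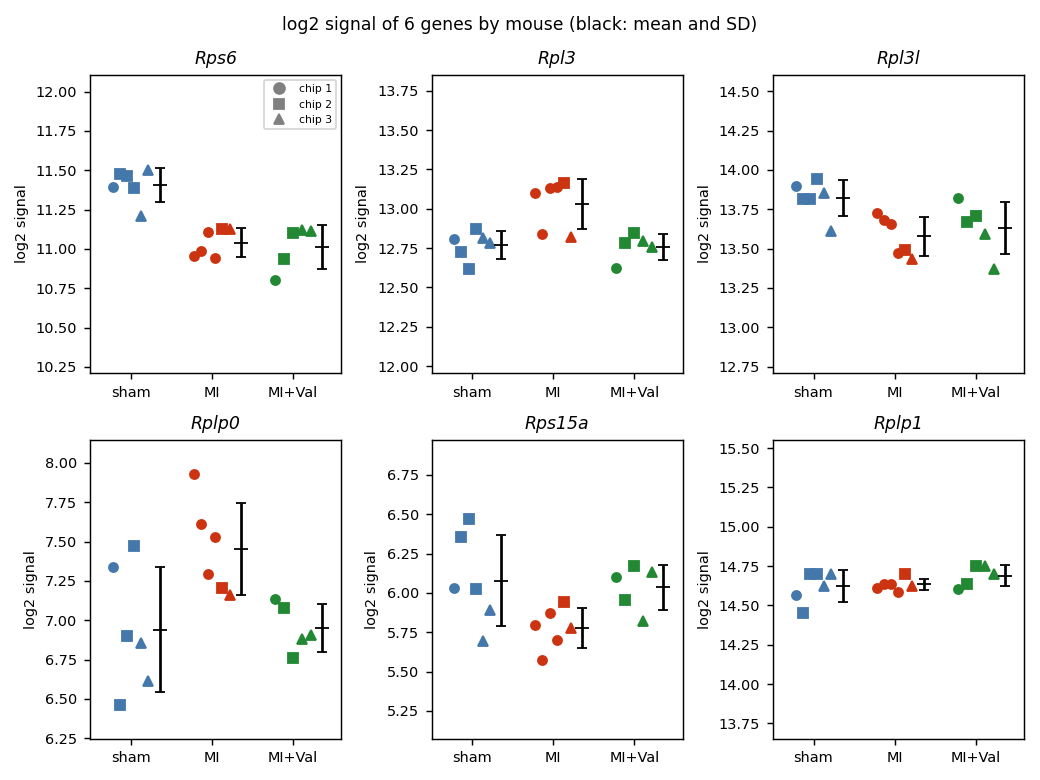
log2 signal (vertical axis, the same span in every panel) of 6 genes in each mouse of the sham, MI and MI+Val groups, with the chip as the marker shape and the group mean and SD in black. Rps6 is below the lowest sham mouse in all MI and MI+Val mice, 4 of the 6 MI mice stand above all others for Rpl3, and the narrow range of Rplp1 is bounded by its rank at the top of the scale.

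The paralogues gave a contrast within a pair. Rpl3l, the heart and skeletal muscle paralogue of Rpl3, ran from 13.61 to 13.94 in sham (median 13.83) and from 13.43 to 13.73 in MI mice (median 13.57). The MI+Val mice were at 13.37, 13.60, 13.67, 13.70 and 13.82. Its MI minus sham difference was -0.24 (95% interval -0.44 to -0.05) and did not pass the test (limma adjusted p = 0.137), with -0.27, -0.36 and -0.30 within chips 1, 2 and 3. These within-chip values each rest on 1 array of one of the groups.

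Rpl3 and Rpl3l thus lay on opposite sides of 0 in MI vs. sham, and the log2 difference Rpl3 minus Rpl3l on the same array was set side by side over the groups. A shift of this quantity shows unequal change and not a level, since both genes are read by different probes. Over the 6 sham mice its mean was -1.05 ± 0.12 (SD). The 6 MI mice had a mean of -0.55 ± 0.20 (SD), and the 5 treated mice one of -0.87 ± 0.21 (SD).

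In sham mice it ran from -1.20 to -0.83 and in MI mice from -0.84 to -0.33, so that these groups overlapped only at their edges, while the MI+Val range of -1.20 to -0.62 lay across both. Taken within chips 1, 2 and 3, MI mice exceeded sham mice by 0.51, 0.79 and 0.32, and the treated mice differed from MI mice by -0.62, -0.54 and -0.09. Each of these values rests on 1 array of one of the groups. In the authors' values the group means were -1.08, -0.56 and -0.88. The pair was looked at with the single gene results known, and no test was made of it. Of the measured markers beside it, the 9 cardiomyocyte genes had a median difference of -0.24 in MI vs. sham with none called. The median was 0.53 for the 8 macrophage, 0.19 for the 7 fibroblast and 0.07 for the 7 endothelial genes. The part of these shifts in the Rpl3 and Rpl3l values was not tested.

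The difference within a pair was also taken for Rpl36a and Rpl36al. For Rpl36a minus Rpl36al the means were -1.36 ± 0.04 (SD) over 6 sham mice, -1.50 ± 0.23 (SD) over 6 MI mice and -1.43 ± 0.22 (SD) over 5 treated mice, with overlapping ranges, and Rpl36al itself differed by -0.00 (95% interval -0.16 to 0.15) in MI vs. sham. Rps27l, a p53 target, differed by 0.16 (-0.02 to 0.35, limma adjusted p = 0.331), and Rpl7l1 by -0.00. Rps4l differed by 0.01 and Rps4x by -0.00 in MI vs. sham, and by 0.15 and -0.11 in MI+Val vs. MI, with neither past the test. Rpl22l1, Rpl39l, Rps27 and Rpl7, partners of measured genes, were not measured. Rps19bp1, a nucleolar partner of Rps19 and no ribosomal protein, differed by 0.22 (-0.10 to 0.55).

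In MI+Val vs. MI mice none of the 56 genes passed the test, against 0% of the 8236 genes. The median difference was -0.00, and 46 of the 56 (82.1%) lay within 0.2 of 0, against 75.6% of all genes. For 45 (80.4%) the 95% interval lay within 0.5 log2 of 0, against 70.4% of all genes. At an unadjusted p under 0.05, limma gave 4 genes (7.14%), against 9.23% of all genes, and all 4 were lower in MI+Val, against 4.72%. These were Rpl3, Rplp0, Rpl21 and Rpl31, the last named after its values were seen. Groups without overlap were found for 1 gene, Rplp0, against 1.12% of all genes.

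The Rpl21 value depended on the probe. Its chosen probe gave -0.40 in MI+Val vs. MI (95% interval -0.72 to -0.08), with MI+Val mice at 5.28, 5.28, 5.56, 5.60 and 5.76 and MI mice from 5.61 to 6.30. Its brighter probes gave -0.00 and -0.05. In MI vs. sham the chosen Rpl21 probe gave 0.11 and the brighter ones -0.07 and -0.25. In MI+Val vs. sham they gave -0.29, -0.07 and -0.29, in the same order. For Rpl31, MI+Val vs. MI gave -0.25 on the chosen probe, -0.12 on another and 0.07 on its brightest probe.

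In MI+Val vs. sham, 0 of the 56 genes passed, against 0.0121% of all genes. At an unadjusted p under 0.05, limma gave 1 gene, Rps6, against 7.25%. Over probes it gave 2 of the 76 (2.63%), that of Rps6 and an Rpl21 probe not chosen, against 7.29% of 11897 probes. The median difference was -0.01, with 52 of the 56 within 0.2 of 0 and 49 intervals (87.5%) within 0.5 log2, against 73.6% of all genes. A test of difference among the 3 groups (limma F test, adjusted p under 0.10) also gave only Rps6, with an adjusted p of 0.0207, against 4.8% of all genes.

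Over all probes rather than 1 per gene, 1 of the 76 (1.32%) was called in MI vs. sham, that of Rps6, against 4.96% of 11897 probes, and none was called in MI+Val vs. MI, against 0.00841%, or in MI+Val vs. sham, against 0.0252%. For 15 genes several probes passed the filter. The most variable probe, which stands for the gene, was not the brightest in 12 of these. Probes of the same gene had different signs of the MI minus sham difference in 11 of the 15, with the widest gap being 0.36.

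Rpl28 was measured by a chosen probe with a mean of 5.38, the lowest among the probes used, and by a bright one. In MI vs. sham these gave 0.01 (95% interval -0.28 to 0.30) and -0.01. In MI+Val vs. MI they gave -0.25 and 0.09.

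**Figure D3:**
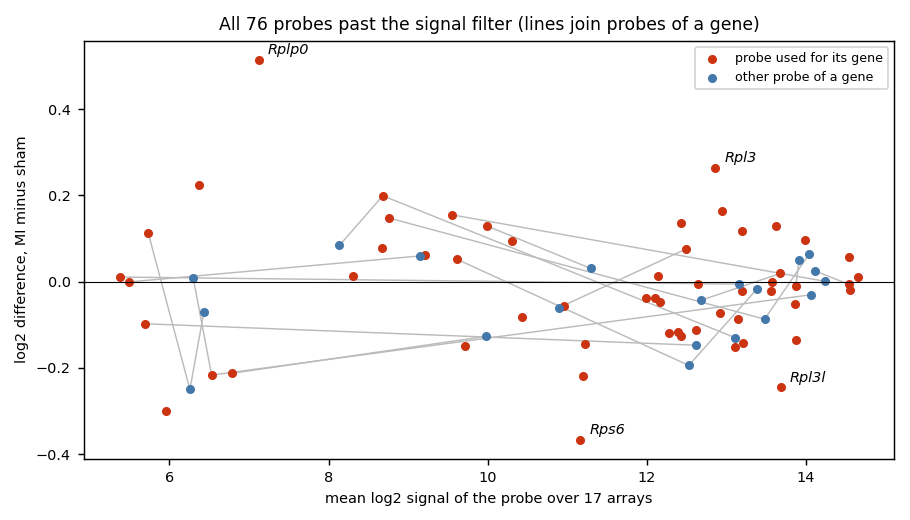
MI minus sham log2 difference of each of the 76 probes (vertical axis) against the mean log2 signal of the probe over 17 arrays (horizontal axis), with the probe used for its gene in red, other probes in blue and lines joining probes of a gene. At high signal Rps6 lies furthest from 0, then Rpl3 and Rpl3l, with Rps25 (-0.22) close to Rpl3l (-0.24). Rplp0 lies at the dim end.

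The spread between mice of a group went with brightness. The median within-group SD was 0.14 over the 56 genes and 0.23 over all genes. Among genes with a mean log2 signal of at least 11 it was 0.11 for 35 ribosomal protein genes and 0.14 for 543 others, and below that signal it was 0.24 for 21 ribosomal protein genes and 0.24 for 7637 others. Each gene was read from its most variable probe, so its spread and its brightness class both depend on that choice. Rps24, for one, was read at a mean of 6.53, while its brightest probe had a mean of 14.06.

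In some mice many members lay on the same side of their means. The mean of the 56 genes, each centred on its own mean over the 17 arrays, had a group mean of 0.0092 ± 0.0947 (SD) over 6 sham mice, -0.0003 ± 0.0364 (SD) over 6 MI mice and -0.0106 ± 0.0454 (SD) over 5 treated mice. Sham replicate 2 was the lowest mouse at -0.154, with 8 of the 56 genes above their own mean, and sham replicate 4 the highest at 0.132, with 47 of the 56. Both are sham mice on chip 2, with 14955 and 14108 probes detected, and the group means differed by less than this spread.

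**Figure D4:**
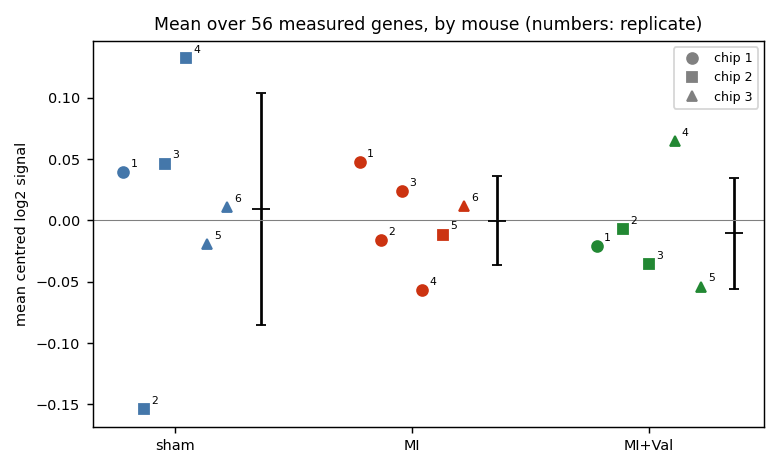
Mean centred log2 signal of the 56 genes (vertical axis) in each mouse, by group, with the replicate number beside the point, the chip as the marker shape and the group mean and SD in black. The lowest and highest mice, sham replicates 2 and 4 at -0.154 and 0.132, are both sham mice on chip 2.

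A few genes of the translation machinery around the ribosome passed the test in MI vs. sham, and the counts below stand beside 5.63% of all genes called, 3.31% higher and 2.32% lower. None of 9 elongation factors passed the test (median -0.09), and Eef1a1, which delivers aminoacyl-tRNA, differed by 0.29 (limma adjusted p = 0.116). Of 31 measured initiation factors 1 was called, Pabpc1, the cytoplasmic poly(A) binding protein, which was 0.52 higher (adjusted p = 0.0432). Of 13 other genes with TOP mRNAs 2 were called, both higher, Pabpc1 and Naca, the alpha subunit of the nascent polypeptide-associated complex, which was 0.50 higher (adjusted p = 0.0142), while the list's median was -0.09.

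Of 41 ribosome biogenesis genes 1 was called, Rrp12, which takes part in the export and maturation of pre-ribosomes and was 0.67 higher in MI (limma adjusted p = 0.00327, list median 0.03). In MI+Val mice Rrp12 was 0.28 below MI with an adjusted p of 0.523. None of 12 RNA polymerase I genes passed, and none of the 9 measured among 18 mTORC1, S6 kinase and MYC genes. Mtor itself differed by 0.24 (limma adjusted p = 0.182) and Mlst8, of the same list, by -0.22 (adjusted p = 0.156). Of 73 mitochondrial ribosomal proteins 2 were lower in MI, Mrpl48 by -0.33 (adjusted p = 0.0341) and Mrpl37 by -0.31 (adjusted p = 0.0416), and of 32 proteasome subunits 1 was higher, Psmb10, an immunoproteasome subunit, by 0.49 (adjusted p = 0.0241). No gene of any of these lists was called in MI+Val vs. MI.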

How the data were processed

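The authors hybridised RNA of 17 mice to MouseWG-6 v.2 BeadChips and deposited, per probe, a bead-averaged intensity that was not normalized, and a detection p-value. The authors also deposited log2 values after variance stabilization and robust spline normalization, made per the submitters' processing notes with lumi and R 3.0.1. Groups and replicate numbers came from sample titles and chips from the array identifiers.

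Signals were processed with limma 3.58.1 in R 4.3.3 (neqc with an offset of 16, quantile normalization, log2). Probes with 1 symbol that met the study's minimum on the 33rd percentile of signal were kept, and each gene was read from its most variable probe (interquartile range). One model held the 3 groups, with no covariate, empirical Bayes moderation and Benjamini-Hochberg adjustment. The script was tested on simulated data. The number of arrays limits the precision, and the offset shrinks differences of dim probes.

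Paralogue differences and subunit counts under other settings were added after seeing the data. Named genes were those called (or the 3 with the smallest p), stalk genes, paralogue pairs, Rpl13a, Rps19, Rps19bp1 and Rpsa, the 3 highest and 3 lowest probes, and up to 2 genes per surrounding list. Members and lists were chosen with earlier results of these data known. Replicate numbers were not used as pairs in the main model. Alternatives covered background, normalization, filters, probe choice, chip, test and each mouse left out. Figures were drawn with matplotlib 3.10.9.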

Additional observations from a re-analysis of the deposited data

Results flagged for a closer look

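In 4 of 171 sets of values examined (the 56 genes and their mean level, each in 3 groups), 1 mouse stood far from the rest of its group by Dixon's ratio of the gap to the nearest mouse over the whole range, where chance alone gives about 1 in 20. Rpl27 was lowest in MI+Val mouse 2 at 13.01, with the nearest mouse at 13.23 (ratio 0.835). Rpl37 was highest in MI mouse 3 at 14.29, with the nearest at 14.00 (ratio 0.783). Rps16 was highest in sham mouse 6 at 12.69, with the nearest at 12.46 (ratio 0.707). Rps3 was lowest in sham mouse 2 at 12.14, with the nearest at 12.46 (ratio 0.682), and this is the mouse with the lowest mean over all 56 genes.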

How the results depend on the processing

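No result turned its direction while called. The 1 gene called in MI vs. sham, Rps6, became 2 with no background correction, in the authors' values, with a variance trend over intensity and by the methods' t-test at its own threshold (Rpl3 added each time), and 2 with the replicate block (Rplp0 added). It became 0 with chip as a fixed block and 0 with the filter on log-variation, which left 14 of the 56 genes among 4919 and did not keep Rps6. This filter was rebuilt from a short description and left fewer genes than the study kept. The study lists Rps6, which this filter dropped, so its outcome was not that of the study's filter. Over all genes, the chip block called 123 higher and 64 lower, against 273 and 191. Leaving out each mouse gave 1 to 2 genes, with 2 without sham replicate 1 or 4 (Rplp0 added) and without MI replicate 6 (Rpl3 added). In MI+Val vs. MI the methods' t-test gave 2 (Rpl3 and Rplp0) in place of 0, and in MI+Val vs. sham the authors' values and that t-test each gave 1 (Rps6) in place of 0. After Benjamini-Hochberg adjustment the t-test gave 1, 0 and 0. Over all 8236 genes the unadjusted t-test rule called 340 higher and 285 lower in MI vs. sham. It called 70 and 83 in MI+Val vs. MI, and 56 and 51 in MI+Val vs. sham. The authors' values called 2 higher and 4 lower of all genes in MI+Val vs. sham. The F test gave 2 genes in place of 1 with no background correction, the authors' values, the brightest probe, the mean of probes, the replicate block and the variance trend, 3 with an offset of 50, 0 with the log-variation filter, and 1 to 2 with a mouse left out. Over probes, MI vs. sham gave 2 in the authors' values, 0 with the chip block and 1 to 2 with a mouse left out, and MI+Val vs. sham gave 1 in the authors' values. The median MI minus sham difference moved from -0.01 to -0.11 with scaling to the 75th percentile. The cause of these changes was not tested, apart from the filter, which removed Rps6.

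Replicate numbers were checked for pairing. Of 16 pairs with the same number 4 had a correlation of residuals above 0.1 (range -0.20 to 0.43), and 6 of 17 arrays correlated best with their own number. No chance level was set for these counts, and the numbers run in array order over the chips. The check therefore cannot exclude pairing, and the numbers were treated as names of mice. The replicate block gave 2 genes in MI vs. sham and 0 in the other comparisons.

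Among single named genes, 1 lost its call (Rps6 with chip as a fixed block) and 8 values gained one, 3 of them with a mouse left out. A further 21 values moved by more than the spread between mice, 16 of them across 0 and none of them called, mostly those of Rpl28 and Rpl21 under settings that read another probe. Dim probes limit Rplp0, Rps13, Rpl21 and Rpl28, each group has 5 or 6 mice, and MI mice sit mostly on chip 1.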
